A study of Sus scrofa with 6 samples.

Results

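The library labelled acute was set against the library labelled normal, 1 library each, over all classes of cells that they held. Cells needed 500 or more unique molecular identifiers (UMIs) of genes, 300 or more genes and a mitochondrial share of UMIs of 20% or less, which left 24132 cells in acute and 17709 in normal, or 41841 of the 83559 such cells of all 6 libraries of the study. By the labels, acute was skin given a 1 mg DFO TDDS patch during 12 weeks of recovery from radiation, and normal was skin with no treatment. DFO is deferoxamine, an iron chelator. Both are labelled as skin of red duroc pigs, and no sort was used, so all cells of the digest could enter the droplets. Fresh tissue was minced and digested with collagenase, and the cells were run on the 10x Chromium 3' v3 platform.

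The files go against these labels in one respect. All 32285 gene features were mouse Ensembl identifiers, and both libraries held counts of 4 antibodies of an anti-mouse hashtag set. Xist had a UMI in 66.1% of the cells of acute and 61.8% of normal, and Y-linked mouse genes together had 3 and 4 UMIs. Both libraries are therefore called by their labels, acute and normal, and no difference is ascribed to radiation or the drug. The series title names an anti-JUN drug and adhesions after surgery.

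Acute held 25052 barcodes with 49408533 gene UMIs and normal 18869 barcodes with 41136493, and the cells that passed had a median of 1385 and 1441 UMIs. The 2 libraries shared 137 barcode sequences. After removal of the cells most likely to be doublets, 19296 cells of acute and 15036 of normal were kept. With 1 library a side animals could not be compared within a label, so the values carry no test and no p-value, and each interval in brackets (95%) covers counting error only. Animal, digest and sequencing cannot be told apart from the label. In acute 1 antibody held more than 50% of the antibody UMIs in 13.9% (13.5 to 14.4) of cells, and in normal in 99.4% of cells, and the labels tie no antibody to an animal. Levels are CPM, the UMIs of a gene scaled to 1000000 UMIs of the same class in the same library. The fold compares these values between the libraries, and a gene is counted as higher or lower from 1.5-fold on, among genes with at least 100 UMIs over both sums. The median log2 ratio of all counted genes lay between -0.05 and 0.03 in the 9 classes described by genes.

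Inflamed or injured skin holds neutrophils, which carry antimicrobial granules and arrive first, monocytes, which follow and mature into macrophages, and fibroblasts, which lay down collagen. Interferons switch on a shared set of antiviral genes in most cell types, and the second interferon type, interferon-gamma, adds genes for guanylate-binding proteins and antigen processing. Gamma-delta T cells of mouse dermis are a main source of the cytokine interleukin-17.

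Clusters of cells were named from marker genes, and the names carry the ending -like. Neutrophil-like cells held a smaller share in acute. They made up 25.6% (25 to 26.2) of kept cells in acute and 40.6% (39.9 to 41.4) in normal, a difference of -15 (-16 to -14) percentage points. The neutrophil-like clusters did not all go this way. Cluster 5 held 2.66% of kept cells in acute and 14.4% in normal, cluster 6 10.1% and 15.1%. Cluster 8 was nearer level, at 9.17% (8.76 to 9.58) and 9.86% (9.39 to 10.4). Cluster 7 was higher in acute, at 3.68% (3.42 to 3.96) and 1.34% (1.17 to 1.54). Mononuclear phagocyte-like cells, the sum of the 3 classes that follow, made up 45% (44.3 to 45.7) of kept cells in acute and 28.3% (27.6 to 29) in normal, a difference of 16.7 (15.7 to 17.7) points. Macrophage-like cells, with the complement genes C1qa, C1qb and C1qc among their leading markers, stood at 14.5% (14 to 15) of kept cells in acute and 5.02% (4.68 to 5.38) in normal. Monocyte-like cells stood at 17.8% (17.2 to 18.3) of kept cells in acute and 11.8% (11.3 to 12.3) in normal, and MHC class II-high myeloid-like cells, which can include dendritic cells, at 12.7% (12.3 to 13.2) of kept cells in acute and 11.5% (11 to 12) in normal. Of these 3 differences, the last was the smallest, at 1.22 (0.521 to 1.92) points, and as a share of the cells that were not neutrophil-like it turned to -2.28 points. The monocyte-like class joined clusters that went opposite ways. Cluster 3, led by Chil3, held 13.1% (12.7 to 13.6) of kept cells in acute and 5.50% (5.14 to 5.88) in normal. Cluster 10, led by Arg1, held 4.63% (4.34 to 4.93) in acute and 6.28% (5.90 to 6.68) in normal. Other settings moved the monocyte difference from 6.0 (5.25 to 6.75) to 3.52 points with all doublet candidates kept, and the macrophage difference from 9.47 (8.86 to 10.1) to 6.0 points with each library clustered alone. In the first setting an unnamed cluster with leading MHC class II and neutrophil markers held 7.90% of cells in acute and 4.24% in normal. In the second the macrophage-like cluster of acute had the mast cell markers Mcpt4 and Cpa3 among its leading genes.

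Fibroblast-like and vascular cells made up a smaller share in acute. Fibroblast-like cells made up 8.39% (8.0 to 8.79) of kept cells in acute and 13% (12.5 to 13.6) in normal, a difference of -4.61 (-5.28 to -3.94) points. The share of vascular endothelial-like cells was 2.23% (2.02 to 2.45) of kept cells in acute and 3.03% (2.76 to 3.31) in normal, and that of keratinocyte-like cells, the cells of the epidermis and hair follicle, was 1.57% (1.39 to 1.75) of kept cells in acute and 1.5% (1.31 to 1.7) in normal. As shares of the cells that were not neutrophil-like, the fibroblast difference was -10.6 points, the vascular one -2.10 in place of -0.798 (-1.15 to -0.452), and the keratinocyte one -0.417 in place of 0.0687 (-0.199 to 0.333). Adipocyte-like cells numbered 151 in acute and 32 in normal, with shares of 0.783% (0.663 to 0.917) of kept cells in acute and 0.213% (0.146 to 0.30) in normal. Skeletal muscle-like cells numbered 49 and 5, pericyte or smooth muscle-like cells 162 and 68, and Schwann-like cells 117 and 58. Mast-like cells were the reverse, with 26 in acute and 45 in normal. How much fat and muscle lay under the skin piece is not recorded in the labels, and its part in these shares was not tested.

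T and NK-like cells together were more frequent in acute at the filter used here, and less frequent with a stricter one. Gamma-delta T-like cells made up 5.76% (5.43 to 6.1) of kept cells in acute and 2.89% (2.63 to 3.17) in normal, and alpha-beta T-like cells, a class that also held natural killer (NK) markers, 6.84% (6.49 to 7.21) of kept cells in acute and 6.57% (6.18 to 6.98) in normal. The alpha-beta T-like class joined clusters that went opposite ways. Cluster 1, led by Il17f, held 5.33% (5.02 to 5.66) of kept cells in acute and 2.96% (2.69 to 3.24) in normal. Cluster 12, led by Gzma, held 1.51% (1.34 to 1.69) in acute and 3.61% (3.32 to 3.92) in normal. The stricter filter (1000 UMIs, 500 genes, 10% mitochondrial UMIs), after which cells were clustered again, left 272 gamma-delta T-like cells in acute, 2.45%, and 321 in normal, 3.71%, a difference of -1.26 points (-1.76 to -0.765). The alpha-beta T-like difference was -1.18 points there and -1.88 points among the cells that were not neutrophil-like. T and NK-like cells together went from 3.13 (2.47 to 3.8) to -2.44 points with that filter. Gamma-delta T-like cells had a median of 787 UMIs in acute and 1418 in normal, and the part of depth in these shares was not tested. Cluster 22, with 20 cells in acute and 54 in normal, had leading markers of plasmacytoid dendritic cells and of B cells and stayed unnamed.

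**Figure D1:**
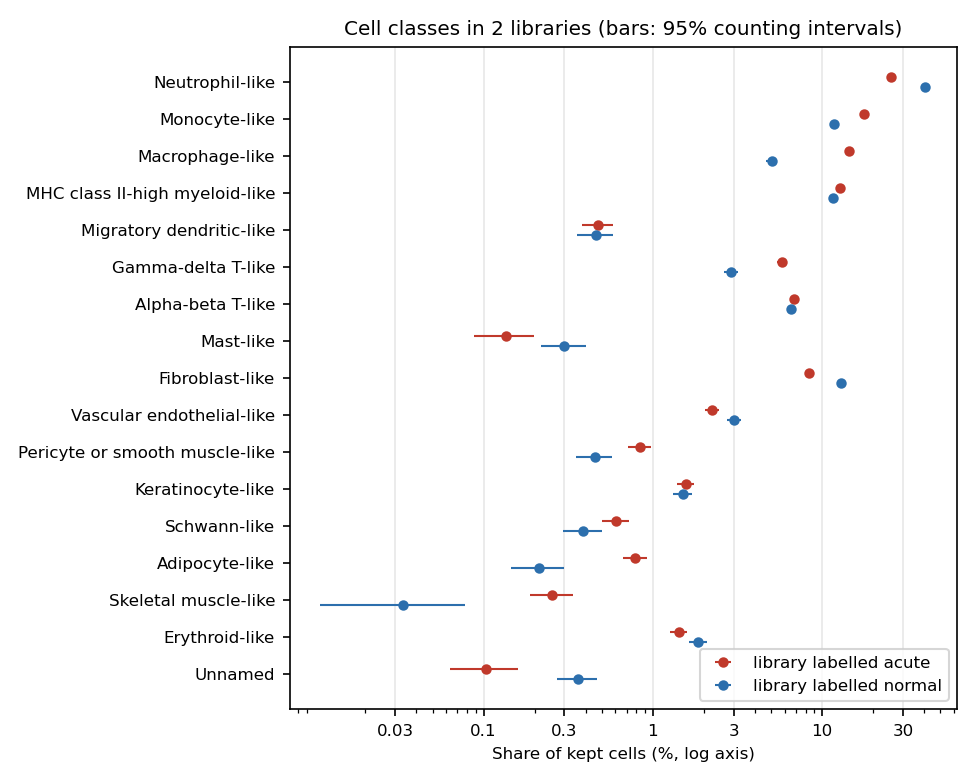
Share of kept cells (percent, log axis) in each class for acute (red) and normal (blue), with exact 95% intervals for counting error. Neutrophil-like and fibroblast-like points lie to the left in acute, and those of monocyte-like, macrophage-like, adipocyte-like and skeletal muscle-like cells to the right.

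The interferon-stimulated list, 36 genes of the antiviral response, was higher in acute across most classes. Over all kept cells summed, 20 of 33 counted members were higher and 0 lower, with a median log2 ratio of 0.75, where 4.57% of all counted genes were higher and 7.41% lower. In monocyte-like cells 28 of 29 counted members were higher and 0 lower, with a median log2 ratio of 1.35, where 6.08% of all counted genes were higher and 5.92% lower and their median log2 ratio was -0.01. Within clusters 3 and 10 of this class the list median was 1.11 and 1.01. With the stricter cell filter, a cluster with Oasl1 and Ifit1bl1 among its leading genes held 776 of 2457 monocyte-like cells in acute and 89 of 1209 in normal. Its part in these values was not tested. The list followed in MHC class II-high myeloid-like cells, in which 19 of 30 counted members were higher and 0 lower, with a median log2 ratio of 0.83 (4.12% of all counted genes higher, 2.61% lower). Among macrophage-like cells, 19 of 29 counted members were higher and 0 lower, with a median log2 ratio of 0.78 (4.36% and 4.64% of all counted genes). Neutrophil-like cells gave a lower value, and there 13 of 28 counted members were higher and 0 lower, with a median log2 ratio of 0.56 (7.59% and 7.23% of all counted genes). For fibroblast-like cells, 14 of 30 counted members were higher and 0 lower, with a median log2 ratio of 0.55 (4.96% and 3.92% of all counted genes). The list was flatter in the T and vessel classes: among alpha-beta T-like cells 6 of 14 counted members were higher and 0 lower, with a median log2 ratio of 0.28 (5.49% and 4.47% of all counted genes), and among vascular endothelial-like cells 7 of 20 counted members were higher and 0 lower, with a median log2 ratio of 0.21 (5.89% and 2.99%). In keratinocyte-like cells only 5 members were counted, with a median of -0.44.

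Irf7 (ENSMUSG00000025498), the transcription factor that amplifies interferon production, was at least 1.5-fold higher in acute in each of the 7 classes in which it was counted. Its level in monocyte-like cells was 222 CPM in acute and 41.1 CPM in normal, 5.39-fold higher (4.54 to 6.45). In MHC class II-high myeloid-like cells it was 231 CPM in acute and 72.8 CPM in normal, 3.18-fold higher (2.8 to 3.61), and in macrophage-like cells 214 CPM in acute and 70.4 CPM in normal, 3.04-fold higher (2.49 to 3.75). In vascular endothelial-like cells it stood at 133 CPM in acute and 37.4 CPM in normal, 3.55-fold higher (2.61 to 4.87). Only 2 other genes of the 4683 counted in at least 6 classes were higher by that fold in every class that counted them, and 0 were lower: Ifit1 (ENSMUSG00000034459), an antiviral protein that binds foreign RNA, in 6 classes, and Cd83 (ENSMUSG00000015396), a surface protein of activated antigen-presenting and other immune cells, in 8. Ifit1 ratios ran from 1.5 in MHC class II-high myeloid-like cells to 2.63 in monocyte-like and fibroblast-like cells, and Cd83 ratios from 1.81 in alpha-beta T-like cells to 4.45 in neutrophil-like cells. These 3 genes were found by looking through all classes. The 8 classes of Cd83 took in erythroid-like cells, which are not described further. Cd83 stood at 416 CPM in acute and 218 CPM in normal in MHC class II-high myeloid-like cells. Its levels were far lower in neutrophil-like cells, at 49.997 and 11.2 CPM, and in fibroblast-like cells, at 19.2 and 5.18 CPM. The part of RNA from other classes in the Cd83 ratios was not tested.

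**Figure D2:**
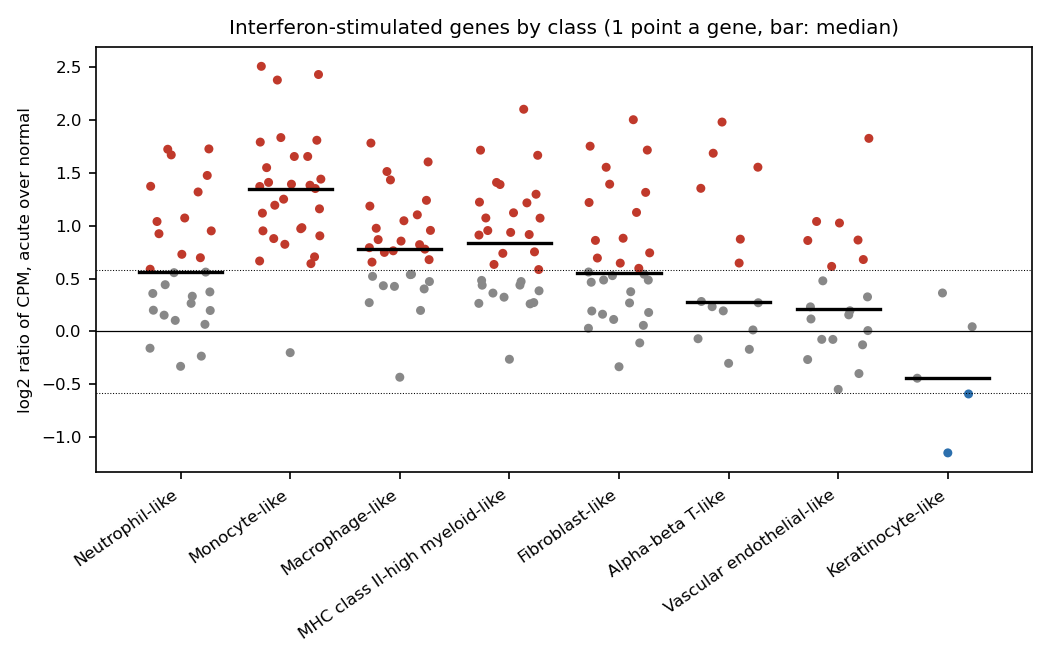
log2 ratio of CPM, acute over normal, for each counted member of the interferon-stimulated list (points) in 8 classes, with the median as a bar and 1.5-fold as dotted lines. In monocyte-like cells 28 of 29 points lie above the upper dotted line.

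Neutrophil-like cells of acute had more RNA of G0s2, Camp and Ltf and less of the genes that interferon-gamma induces. Of the latter list, 0 of 19 counted members were higher and 9 lower, with a median log2 ratio of -0.58 (7.59% and 7.23% of all counted genes). The list was lowest in cluster 8, led by Ngp, in which 15 of 15 counted members were lower with a median of -1.58, where 6.38% of the 3258 genes counted in that cluster were lower and 9.24% higher. In clusters 5, 6 and 7 the median was 0.18, -0.15 and -0.14. The interferon-stimulated list also turned in cluster 8, to -0.22. Gbp2, a guanylate-binding protein, stood over the class at 310.4 CPM in acute and 754 CPM in normal, 2.43-fold lower (2.3 to 2.57), with a ratio of 0.144 in cluster 8 and 1.55 in cluster 5. Irgm1, an interferon-inducible GTPase of defence against microbes inside cells, was at 55.9 CPM in acute and 133 CPM in normal, 2.37-fold lower (2.08 to 2.72), with ratios of 0.179 in cluster 8 and 1.45 in cluster 5. With the stricter cell filter the log2 ratios of Gbp2 and Irgm1 went from -1.28 and -1.25 to -2.03 and -2.12. The 4 clusters held different shares of the class in the 2 libraries: cluster 5, led by Ccl3 and Il1f9, 10.4% in acute and 35.4% in normal, cluster 6 39.4% and 37.1%, cluster 7, led by stefin genes, 14.4% and 3.30%, and cluster 8 35.8% and 24.3%.

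Camp (ENSMUSG00000038357), the antimicrobial peptide cathelicidin, stood at 120.2 CPM in acute and 33.3 CPM in normal, 3.61-fold higher (3.1 to 4.22) in neutrophil-like cells, on UMIs in 98 of 4941 cells in acute and 98 of 6112 in normal. Ltf (ENSMUSG00000032496), the iron-binding granule protein lactoferrin, was at 258 CPM in acute and 99.1 CPM in normal, 2.6-fold higher (2.37 to 2.86), though fewer cells held a UMI of it in acute, 140 of 4941 cells in acute and 272 of 6112 in normal. The top cell held 77 of 1316 UMIs of Ltf in acute and 50 of 697 UMIs in normal. Over the clusters they differed in direction: both were higher in cluster 8 (3.93-fold and 2.88-fold) and lower in cluster 6 (ratios of 0.576 and 0.702). G0s2, an inhibitor of fat breakdown that marks neutrophils, was at 2205 CPM in acute and 1025 CPM in normal, 2.15-fold higher (2.09 to 2.22), with ratios of 1.27, 1.78, 2.16 and 1.66 in clusters 5 to 8. Granule genes as a list were level, since 3 of 16 counted members were higher and 2 lower, with a median log2 ratio of 0.08 (7.59% and 7.23% of all counted genes). Lower genes were Olfm4, a granule protein of a subset of neutrophils, at 20.2 CPM in acute and 67.1 CPM in normal, 3.32-fold lower (2.68 to 4.15), and Serf1, a small protein linked to amyloid formation, at 9.8 CPM in acute and 62.4 CPM in normal, 6.36-fold lower (4.74 to 8.71). The cytokine Il1a stood at 645 CPM in acute and 1328 CPM in normal, 2.06-fold lower (1.98 to 2.14), and its ratios in clusters 5 to 8 were 0.472, 0.538, 0.513 and 0.442. The bacteriostatic protein Lcn2 was at 3551 CPM in acute and 6617 CPM in normal, 1.86-fold lower (1.83 to 1.9). Cd74, highest in MHC class II-high myeloid-like cells, was in neutrophil-like cells at 4.90% of that level in acute and 2.69% in normal. The part of RNA from other classes in these values was not tested.

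Monocyte-like cells of acute had more RNA of chemokines that call in further monocytes. Ccl2 (ENSMUSG00000035385), the main monocyte chemoattractant, was at 1100.2 CPM in acute and 366 CPM in normal, 3.01-fold higher (2.83 to 3.2). Ccl12 (ENSMUSG00000035352), its close relative, was at 52.2 CPM in acute and 14.5 CPM in normal, 3.61-fold higher (2.67 to 4.96), with a ratio of 1.18 in cluster 10 alone and a log2 ratio of 0.95 in place of 1.85 with the stricter cell filter. Slfn5, Ifi205 and Oasl1, 3 interferon-induced genes, completed the 5 highest genes with Irf7 and Ccl12, at 3.5-fold, 3.43-fold and 3.15-fold. Of the chemokine list 10 of 24 counted members were higher and 2 lower, with a median log2 ratio of 0.46, and of the NF-kB list, genes of inflammatory signalling, 12 of 36 counted members were higher and 2 lower, with a median log2 ratio of 0.38. Over all genes counted in this class, 6.08% were higher and 5.92% lower. The anti-inflammatory cytokine Il10 was at 334 CPM in acute and 165 CPM in normal, 2.02-fold higher (1.84 to 2.22).

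The 2 monocyte-like clusters made up different shares of the class. Cluster 3, led by Chil3 and Ms4a4c, held 74.0% of it in acute and 46.7% in normal, and cluster 10, led by Arg1, U90926 and Mmp12, 26.0% and 53.3%. Cluster 10 had 1 of its own markers among its 10 leading genes, F13a1. U90926, a leading gene of cluster 10, was among the 5 genes lowest in acute. Ctsk (ENSMUSG00000028111), the collagen-cutting cathepsin K, stood at 35.4 CPM in acute and 294 CPM in normal, 8.31-fold lower (7.13 to 9.71), with a ratio of 0.049 in cluster 3 and 0.838 in cluster 10. Mmp9 (ENSMUSG00000017737), a gelatinase, stood at 37.7 CPM in acute and 274 CPM in normal, 7.28-fold lower (6.27 to 8.49), with 0.063 and 0.457. Acp5, tartrate-resistant acid phosphatase, was at 66 CPM in acute and 264 CPM in normal, 3.99-fold lower (3.54 to 4.52). These 3 values depended on which cells were kept. Ctsk had UMIs in 163 of 3430 cells in acute and 152 of 1771 in normal, with 138 of 1037 UMIs of normal in 1 cell. In normal the top cell for Mmp9 held 158 of 968 UMIs and that for Acp5 197 of 930 UMIs, while in acute the top cell for each of the 3 genes held at most 7 UMIs. With all doublet candidates kept, the log2 ratio of Ctsk went from -3.05 to -1.22, that of Mmp9 from -2.86 to -1.84 and that of Acp5 from -2.00 to -0.36. With the stricter cell filter they were -0.71, -1.51 and -0.03. With that filter 25 cells of acute and 57 of normal formed a cluster of their own outside the monocyte-like class, led by Jchain, Mcpt1, Ctsk, Acp5 and Atp6v0d2. The fixed markers gave it a plasma cell name through Jchain and Mzb1, which Ctsk and Acp5 among its leading genes go against. Of the hypoxia and glycolysis list, 0 of 34 counted members were higher and 6 lower (6.08% and 5.92% of all counted genes), with a median log2 ratio of -0.27 over the class, against 0.19 in cluster 3 and -0.11 in cluster 10. Some genes were alike in both clusters: Hmox1, which degrades haem, had ratios of 0.477 and 0.587, and the haem transporter Slc48a1 of 0.443 and 0.641.

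Macrophage-like cells of acute had more RNA of Jaml, Plac8 and Pgf and less of Lpl, Cbr2 and Igf1. Jaml (ENSMUSG00000048534), an adhesion molecule of migrating leukocytes, was at 85.4 CPM in acute and 20.8 CPM in normal, 4.11-fold higher (2.85 to 6.12). Plac8 (ENSMUSG00000029322), a marker of inflammatory monocytes, was at 484 CPM in acute and 119 CPM in normal, 4.05-fold higher (3.48 to 4.75). Pgf, placental growth factor, stood at 87.8 CPM in acute and 26.2 CPM in normal, 3.36-fold higher (2.42 to 4.78). On the lower side, Lpl (ENSMUSG00000015568), the lipoprotein lipase, was at 127 CPM in acute and 469.5 CPM in normal, 3.7-fold lower (3.32 to 4.13), and Cbr2 (ENSMUSG00000025150), a carbonyl reductase of resident skin macrophages, at 48.6 CPM in acute and 140.2 CPM in normal, 2.89-fold lower (2.39 to 3.48). The scavenger receptor Cd163 stood at 98 CPM in acute and 165 CPM in normal, 1.68-fold lower (1.44 to 1.97) and the growth factor Igf1 at 46.2 CPM in acute and 108 CPM in normal, 2.34-fold lower (1.9 to 2.87). Of the resident macrophage list, 0 of 15 counted members were higher and 6 lower (4.36% and 4.64% of all counted genes), with a median log2 ratio of -0.52. With coarser clustering (resolution 0.5) the class took in other cells and this median turned to 0.21. The log2 ratio of Cd163 turned there from -0.75 to 0.21, and those of Plac8, Pgf, Lpl, Cbr2 and Igf1 were 0.41, 1.16, -1.07, -0.48 and -0.47. Inflammatory genes were higher: of the NF-kB list 10 of 36 counted members were higher and 0 lower, with a median log2 ratio of 0.46, with Tnf at 1644 CPM in acute and 892 CPM in normal, 1.84-fold higher (1.74 to 1.95) and Il1b at 4476 CPM in acute and 2815 CPM in normal, 1.59-fold higher (1.54 to 1.64).

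MHC class II-high myeloid-like cells had their defining MHC genes at like levels in both libraries. Of the MHC class II list, which presents peptides to helper T cells, 1 of 8 counted members were higher and 0 lower, with a median log2 ratio of -0.10, and Cd74, its chaperone, stood at 9315 CPM in acute and 10321 CPM in normal. Id3 (ENSMUSG00000007872), a regulator of differentiation, was at 182 CPM in acute and 59.4 CPM in normal, 3.07-fold higher (2.66 to 3.54). Ccl7, a second monocyte chemoattractant, was at 399 CPM in acute and 144 CPM in normal, 2.77-fold higher (2.53 to 3.04). Mgl2, a lectin of dermal dendritic cells and macrophages, stood at 62.5 CPM in acute and 24.4 CPM in normal, 2.56-fold higher (2.04 to 3.23). The mannose receptor Mrc1 was at 489 CPM in acute and 305 CPM in normal, 1.6-fold higher (1.5 to 1.72). Lower were Areg (ENSMUSG00000029378), a growth factor of tissue repair, at 65.1 CPM in acute and 174 CPM in normal, 2.66-fold lower (2.33 to 3.05), and Gclm, a subunit of the enzyme that makes glutathione, at 65.9 CPM in acute and 139 CPM in normal, 2.11-fold lower (1.84 to 2.42). The antioxidant list, targets of the stress factor Nrf2, showed that 0 of 27 counted members were higher and 6 lower, with a median log2 ratio of -0.41 (4.12% and 2.61% of all counted genes).

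**Figure D3:**
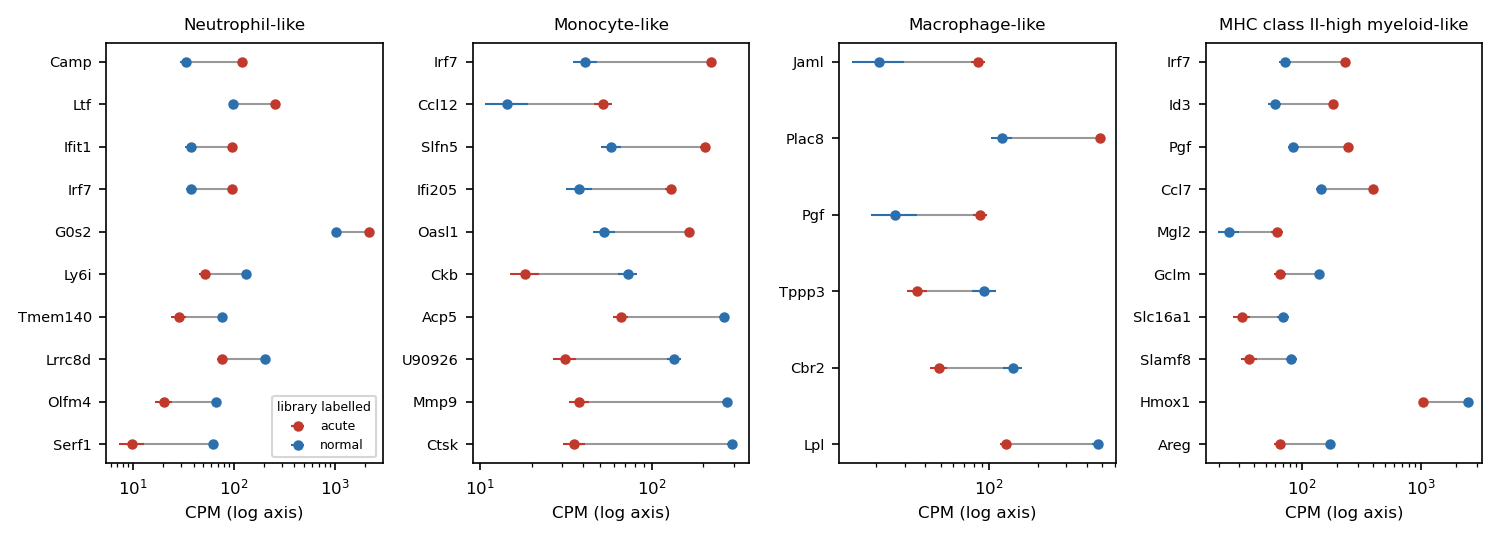
CPM (log axis) in acute (red) and normal (blue), with 95% counting intervals, of the genes with the highest and lowest ratio in the 4 largest leukocyte classes, ordered by ratio. Irf7 is the highest in monocyte-like and MHC class II-high myeloid-like cells, and Ctsk and Areg are the lowest there.

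Hmox1, which degrades haem, was lower in acute in the 4 myeloid classes. Hmox1 (ENSMUSG00000005413) was at 1044 CPM in acute and 2528 CPM in normal, 2.42-fold lower (2.34 to 2.5) in MHC class II-high myeloid-like cells. Neutrophil-like cells had it at 1509.7 CPM in acute and 2896 CPM in normal, 1.92-fold lower (1.87 to 1.97), and monocyte-like cells at 1704 CPM in acute and 3314 CPM in normal, 1.94-fold lower (1.89 to 2.0). Macrophage-like cells gave 1650.0 CPM in acute and 2990.2 CPM in normal, 1.81-fold lower (1.75 to 1.88). The gap was narrower in fibroblast-like cells, at 635 CPM in acute and 905 CPM in normal, 1.42-fold lower (1.37 to 1.48). Slc40a1, ferroportin, which exports iron, was at 61 CPM in acute and 133 CPM in normal, 2.19-fold lower (1.92 to 2.5) in neutrophil-like cells. The lists around it differed less. Of all counted genes, 7.59% were higher and 7.23% lower in neutrophil-like cells, and 6.08% and 5.92% in monocyte-like cells. These shares were 4.36% and 4.64% in macrophage-like and 4.12% and 2.61% in MHC class II-high myeloid-like cells. Of the iron and haem list, 2 of 20 counted members were higher and 5 lower, with a median log2 ratio of -0.30 in neutrophil-like cells, and 0 of 20 counted members were higher and 4 lower, with a median log2 ratio of -0.23 in monocyte-like cells. For macrophage-like cells 0 of 23 counted members were higher and 6 lower, with a median log2 ratio of -0.12, and for MHC class II-high myeloid-like cells 0 of 21 counted members were higher and 4 lower, with a median log2 ratio of -0.11. Of the antioxidant list, 3 of 27 counted members were higher and 5 lower, with a median log2 ratio of -0.24 in neutrophil-like cells, where members went both ways, and 0 of 27 counted members were higher and 9 lower, with a median log2 ratio of -0.28 in monocyte-like cells. In macrophage-like cells 0 of 27 counted members were higher and 6 lower, with a median log2 ratio of -0.16.

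**Figure D4:**
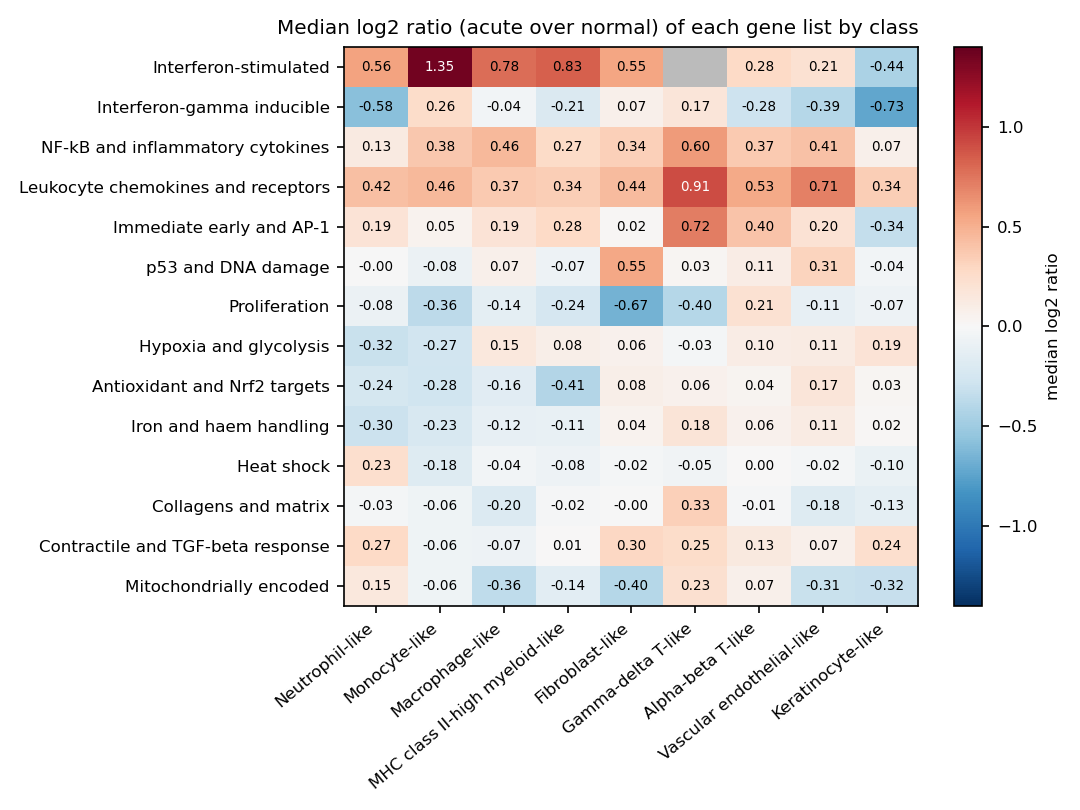
Median log2 ratio, acute over normal, of 14 gene lists (rows) in 9 classes (columns), red for higher and blue for lower, grey where fewer than 5 members were counted. The interferon-stimulated row is highest in monocyte-like cells (1.35), and in fibroblast-like cells the p53 value is 0.55 and the proliferation value -0.67.

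Fibroblast-like cells of acute had more RNA of p53 target genes and less of genes of dividing cells. Of the p53 and DNA damage list, 14 of 29 counted members were higher and 0 lower, with a median log2 ratio of 0.55. Over all genes counted in this class, 4.96% were higher and 3.92% lower. Cdkn1a, the p21 protein that stops the cell cycle, was at 569 CPM in acute and 266 CPM in normal, 2.14-fold higher (2.04 to 2.25), with a ratio of 1.12 in cluster 19. Zmat3 (ENSMUSG00000027663), a p53 target that binds RNA, was at 79.4 CPM in acute and 33.2 CPM in normal, 2.39-fold higher (2.08 to 2.75), and Phlda3 (ENSMUSG00000041801), a p53 target that restrains Akt signalling, at 59.9 CPM in acute and 25.7 CPM in normal, 2.33-fold higher (1.98 to 2.74). Of the proliferation list, 0 of 34 counted members were higher and 18 lower, with a median log2 ratio of -0.67. Top2a, the topoisomerase of dividing cells, stood at 30.9 CPM in acute and 62.1 CPM in normal, 2.01-fold lower (1.72 to 2.35), and Ube2c, which helps complete mitosis, at 30.7 CPM in acute and 62.2 CPM in normal, 2.02-fold lower (1.73 to 2.37). Both lists had values near these in cluster 4 alone, which held 93.3% of the fibroblast-like cells in acute and 86.4% in normal: the p53 median there was 0.55 and the proliferation median -0.61. Cluster 4 may itself mix subtypes, because the stricter cell filter gave several fibroblast-like clusters in unequal shares. The part of such a mix in these medians was not tested. For the p53 list in vascular endothelial-like cells, 4 of 15 counted members were higher and 0 lower, with a median log2 ratio of 0.31 (5.89% and 2.99% of all counted genes).

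Secreted growth and matrix factors were among the genes with the largest ratios in fibroblast-like cells. Ptn (ENSMUSG00000029838), the heparin-binding growth factor pleiotrophin, was at 126 CPM in acute and 15.3 CPM in normal, 8.24-fold higher (6.89 to 9.92), with UMIs in 177 of 1619 cells in acute and 75 of 1955 in normal. Pappa (ENSMUSG00000028370), a protease that frees insulin-like growth factors, was at 74.7 CPM in acute and 16 CPM in normal, 4.67-fold higher (3.88 to 5.64). Grem1 (ENSMUSG00000074934), an antagonist of bone morphogenetic proteins, was at 225 CPM in acute and 60.6 CPM in normal, 3.71-fold higher (3.37 to 4.1). Prss35 and Cpxm2, members of the serine protease and carboxypeptidase families, were 4.98-fold and 4.69-fold higher. Col8a1, a short-chain collagen, was at 254 CPM in acute and 77.1 CPM in normal, 3.3-fold higher (3.02 to 3.6), and the retinoic acid-binding protein Crabp1 at 275 CPM in acute and 110.0 CPM in normal, 2.5-fold higher (2.32 to 2.7), but with a ratio of 0.358 in cluster 19. In cluster 4 alone the ratio of Ptn was 8.04 and that of Crabp1 2.71.

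Lower genes in fibroblast-like cells included Spon2, Sfrp4 and markers of fascia fibroblasts. Spon2 (ENSMUSG00000037379), a matrix protein of host defence, was at 21.1 CPM in acute and 107 CPM in normal, 5.05-fold lower (4.27 to 6.02). Sfrp4 (ENSMUSG00000021319), a secreted Wnt inhibitor, was at 25.5 CPM in acute and 80.6 CPM in normal, 3.16-fold lower (2.69 to 3.73). Dpp4, a peptidase of progenitor-like fascia fibroblasts, stood at 28.1 CPM in acute and 59.8 CPM in normal, 2.13-fold lower (1.81 to 2.51), and Clec3b, the matrix protein tetranectin, at 99.6 CPM in acute and 216 CPM in normal, 2.16-fold lower (1.99 to 2.36). Of the fibroblast subtype list, 4 of 31 counted members were higher and 8 lower, with a median log2 ratio of -0.19, and of the Wnt list 2 of 24 counted members were higher and 6 lower, with a median log2 ratio of -0.30, or -0.22 in cluster 4 alone. Over all genes counted in the class, 4.96% were higher and 3.92% lower. Cluster 19, led by Igfbp3, Enpp2 and Wif1, held 6.67% of the class in acute and 13.6% in normal. The stricter cell filter set apart a fibroblast-like cluster marked by Dpt, Clec3b and Pi16. Of the class at that filter, 109 of 1479 cells in acute and 383 of 1684 in normal fell into it. The part of this uneven subtype mix in the fibroblast-like ratios, Clec3b and Dpp4 included, was not tested.

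Collagen and matrix genes went both ways, Col8a1 among the higher ones. Of the list, 8 of 53 counted members were higher and 2 lower, with a median log2 ratio of -0.00, where 4.96% of all counted genes were higher and 3.92% lower. Col1a1, the main fibrillar collagen, was at 14931 CPM in acute and 17902 CPM in normal, 1.2-fold lower (1.19 to 1.21) and Col3a1 at 14268 CPM in acute and 18772 CPM in normal, 1.32-fold lower (1.31 to 1.33). In cluster 19 alone their ratios were 0.367 and 0.335, and the median of the list was -0.59. Acta2, the actin of contractile fibroblasts and smooth muscle, was at 128 CPM in acute and 72.1 CPM in normal, 1.77-fold higher (1.6 to 1.96), with a ratio of 0.625 in cluster 19, and had its top level in the pericyte class. Of the contractile list, 5 of 28 counted members were higher and 0 lower, with a median log2 ratio of 0.30, or -0.17 in cluster 19 alone. Jun, the transcription factor that the series title names, was level at 1279.7 CPM in acute and 1283 CPM in normal, a ratio of 0.997 (0.971 to 1.02), and of the immediate early and AP-1 list 0 of 30 counted members were higher and 0 lower, with a median log2 ratio of 0.02.

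Genes of the response to low oxygen and of iron handling were close to level in fibroblast-like cells. Vegfa, the vessel growth factor, was at 277 CPM in acute and 279 CPM in normal, a ratio of 0.992 (0.935 to 1.05). The transferrin receptor Tfrc, which takes up iron, was at 43 CPM in acute and 35.5 CPM in normal, 1.21-fold higher (1.03 to 1.42), and Fth1, the heavy chain of the iron store ferritin, at 9257 CPM in acute and 8810.4 CPM in normal, 1.05-fold higher (1.04 to 1.06). Of the hypoxia and glycolysis list, 0 of 34 counted members were higher and 0 lower, with a median log2 ratio of 0.06, and of the iron and haem list 0 of 24 counted members were higher and 1 lower, with a median log2 ratio of 0.04 (4.96% and 3.92% of all counted genes). The metal-binding metallothioneins stood apart, with Mt1 at 6375 CPM in acute and 3337 CPM in normal, 1.91-fold higher (1.88 to 1.94) and Mt2 at 5572 CPM in acute and 3192 CPM in normal, 1.75-fold higher (1.72 to 1.77). The mitochondrially encoded genes of these cells had a median log2 ratio of -0.40, and the median mitochondrial share of UMIs was 2.97% in acute and 3.71% in normal. The part of RNA quality in these values was not tested.

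**Figure D5:**
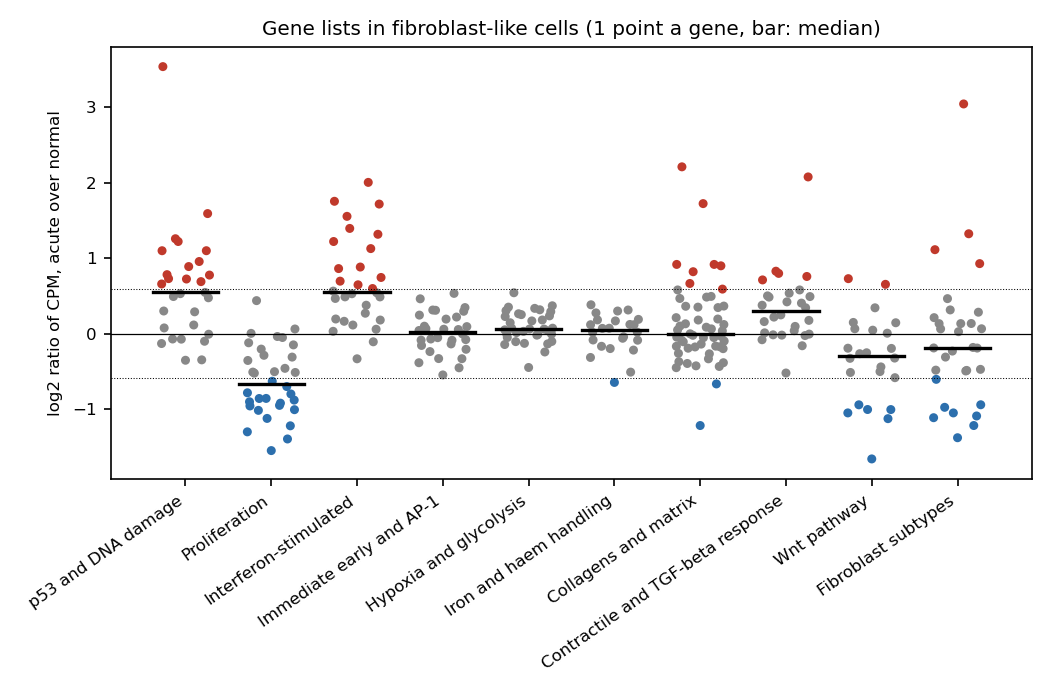
log2 ratio of CPM, acute over normal, for each counted member (points) of 10 gene lists in fibroblast-like cells, with the median as a bar and 1.5-fold as dotted lines. The p53 list has 14 of 29 points above the upper line, the proliferation list 18 of 34 below the lower one, and the immediate early, hypoxia and iron lists almost none outside them.

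The interleukin-17 type of T cell differed in its cytokines. In gamma-delta T-like cells Il22 (ENSMUSG00000074695), a cytokine that acts on the epidermis, was at 122 CPM in acute and 818 CPM in normal, 6.72-fold lower (5.54 to 8.21), on UMIs in 32 of 1111 cells in acute and 66 of 435 in normal, where 1 cell held 190 of 601, and Il17f (ENSMUSG00000041872) was at 464 CPM in acute and 1638 CPM in normal, 3.53-fold lower (3.17 to 3.93). Il17a itself was level, at 2499 CPM in acute and 2397 CPM in normal. The repair factor Areg was the reverse, at 1805 CPM in acute and 507 CPM in normal, 3.56-fold higher (3.18 to 3.98), whereas in the MHC class II-high and monocyte-like classes it was lower in acute. Camk2n1, an inhibitor of a calcium-dependent kinase, was at 126 CPM in acute and 29.9 CPM in normal, 4.22-fold higher (2.68 to 6.97), and Ly6a, a surface marker of activated lymphocytes, at 449.7 CPM in acute and 1192 CPM in normal, 2.65-fold lower (2.37 to 2.97). Of the immediate early list 15 of 25 counted members were higher and 0 lower, with a median log2 ratio of 0.72, beside 10.2% of all counted genes higher and 7.75% lower in this class. Of the NF-kB list, 14 of 28 counted members were higher and 0 lower, with a median log2 ratio of 0.60. Of the proliferation list, 1 of 12 counted members were higher and 4 lower, with a median log2 ratio of -0.40, which turned to 0.21 once cells were thinned to 1000 UMIs each, which left 290 and 323 cells. RNA of macrophages also moved in this class. Summed macrophage markers stood at 1718 CPM in acute and 893 CPM in normal, and of the resident macrophage list 5 of 6 counted members were higher and 0 lower, with a median log2 ratio of 0.95. Of the complement list 3 of 5 counted members were higher and 0 lower, with a median log2 ratio of 0.63. Their part in the other lists was not tested.

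Alpha-beta T-like cells combined 2 clusters in different shares. Cluster 1, led by Il17f, Icos and Ctla4, held 78.0% of them in acute and 45.0% in normal, and cluster 12, led by Gzma and Nkg7, 22% and 55.0%. Of the T and NK effector list, 9 of 28 counted members were higher and 6 lower (5.49% and 4.47% of all counted genes), with a median log2 ratio of 0.30, so members differed both ways. Il17a was at 1196 CPM in acute and 305 CPM in normal, 3.92-fold higher (3.55 to 4.33) over the class, on UMIs in 402 of 1320 cells in acute and 60 of 988 in normal, with a ratio of 2.9 in cluster 1 and 0.668 in cluster 12. With coarser clustering its log2 ratio was 0.80 in place of 1.97. No gamma-delta T-like class was named there, and the alpha-beta T-like one had Trdc, a gamma-delta T marker, among its leading genes. Tnfsf11, the cytokine RANKL, was at 249.8 CPM in acute and 56.7 CPM in normal, 4.41-fold higher (3.51 to 5.59) and higher in both clusters (3.43-fold and 2.34-fold). Penk, the precursor of enkephalin peptides, was at 175 CPM in acute and 34.3 CPM in normal, 5.1-fold higher (3.82 to 6.93). Lower genes included Cd8a, the co-receptor of cytotoxic T cells, at 24.6 CPM in acute and 90.9 CPM in normal, 3.69-fold lower (2.61 to 5.32), and the NK receptor Klra4 at 15.5 CPM in acute and 91.6 CPM in normal, 5.92-fold lower (3.91 to 9.29). Within cluster 12 their ratios were 0.591 and 0.356. Of the T and NK effector list in cluster 12, 4 of 17 counted members were higher and 1 lower, with a median log2 ratio of 0.08. Of all genes counted in that cluster, 6.41% were higher and 6.77% lower.

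Vascular endothelial-like cells of acute had more RNA of inflammatory mediators. Gdf15 (ENSMUSG00000038508), a stress cytokine, was at 389.8 CPM in acute and 79.7 CPM in normal, 4.89-fold higher (4.01 to 6.0), and Il6 at 494 CPM in acute and 261 CPM in normal, 1.89-fold higher (1.66 to 2.16). Of the NF-kB list 12 of 31 counted members were higher and 0 lower, with a median log2 ratio of 0.41, and of the chemokine list 10 of 17 counted members were higher and 0 lower, with a median log2 ratio of 0.71 (5.89% and 2.99% of all counted genes). Markers of other classes moved with these lists: summed macrophage markers stood at 1050.0 CPM in acute and 344 CPM in normal, monocyte markers at 1557 CPM in acute and 969.6 CPM in normal, and neutrophil markers at 2934 CPM in acute and 2204 CPM in normal. Of the mitochondrially encoded list 0 of 13 counted members were higher and 0 lower, with a median log2 ratio of -0.31. The part of such RNA in the other lists was not tested. The interferon-gamma inducible list went the other way, and 0 of 18 counted members were higher and 6 lower, with a median log2 ratio of -0.39, with the GTPase Igtp at 50.6 CPM in acute and 105 CPM in normal, 2.07-fold lower (1.52 to 2.88). The angiogenesis list was close to level: 4 of 31 counted members were higher and 1 lower, with a median log2 ratio of 0.11. The gene with the largest ratio in this class was the melanocyte enzyme Dct, with 383 UMIs in acute against 1 in normal, and all 383 came from 1 cell. Lymphatic genes were lower: Ccl21a (ENSMUSG00000094686) had UMIs in 5 of 430 cells in acute and 30 of 455 in normal, and Prox1, which sets lymphatic identity, in 7 and 42. With all doublet candidates kept, the log2 ratio of Ccl21a went from -3.30 to -1.62. Such cells therefore lay within the class, and their part in its other values was not tested.

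Keratinocyte-like cells, 302 in acute and 225 in normal, had less RNA of immediate early genes in acute. Of that list 0 of 30 counted members were higher and 10 lower, with a median log2 ratio of -0.34, beside 5.35% of all counted genes higher and 4.49% lower. Atf3, a stress-induced transcription factor, was at 467 CPM in acute and 992 CPM in normal, 2.12-fold lower (1.95 to 2.31) and Egr2, an early growth response factor, at 73.4 CPM in acute and 159.5 CPM in normal, 2.17-fold lower (1.74 to 2.71). Krt6a, a keratin of wounds and hair follicles, was at 3284 CPM in acute and 1467 CPM in normal, 2.24-fold higher (2.13 to 2.36), or a log2 ratio of 0.54 in place of 1.16 with cells thinned to 1000 UMIs, and Prr9, a proline-rich protein of the hair follicle, at 81.2 CPM in acute and 6.35 CPM in normal, 12.8-fold higher (6.33 to 30.1). Krt15, a keratin of basal and follicle stem cells, stood at 127 CPM in acute and 360.4 CPM in normal, 2.84-fold lower (2.43 to 3.34). The lists were split: of the basal and wound list 4 of 24 counted members were higher and 3 lower, with a median log2 ratio of 0.32, and of the differentiation list 1 of 14 counted members were higher and 4 lower, with a median log2 ratio of -0.23. Several of the lowest genes rested on 1 or a few cells. Krt10, a keratin of differentiating epidermis, had 350 UMIs in normal, 170 of them in 1 cell, and Krt8 and Krt18, keratins of simple epithelia, had 131 each, with 119 and 121 in 1 cell.

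RNA of one class was seen in the others in both libraries. Col1a1 in the classes of leukocytes stood at 1.55% to 2.86% of its fibroblast-like level in acute and 1.61% to 2.77% in normal. Cd74 stood in fibroblast-like cells at 279.8 CPM in acute and 139 CPM in normal, or 3.0% and 1.35% of its highest class. Of the MHC class II list in that class, 6 of 6 counted members were higher and 0 lower, with a median log2 ratio of 0.82 (4.96% and 3.92% of all counted genes). The summed level of 12 macrophage markers in fibroblast-like cells was 1098 CPM in acute and 526 CPM in normal, in neutrophil-like cells 1943 and 787 CPM. Macrophage-like cells were the more frequent in acute too. Differences in macrophage and MHC class II genes outside the phagocyte classes are given here with these levels, and the part of free RNA in them was not tested. Erythroid-like cells, 274 and 278, had the neutrophil gene S100a9 at 23.4% and 36.2% of its neutrophil-like level, and their median over all genes, 0.12, was the farthest from 0, with 10.7% of counted genes higher and 4.85% lower, so they are not described further.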

How the data were processed

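UMI counts per gene and cell were deposited as 10x matrices by the authors, made with Cell Ranger 6.0.0 per the file headers. The submitters' processing notes also name Seurat 5.0.1 and the build Sscrofa11.1, whereas the deposited features are mouse genes, so no coordinate is given. Antibody features were left out of gene totals.

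Cells passed at 500 UMIs, 300 genes and 20% mitochondrial UMIs. Scrublet scores (scanpy 1.11.5) ranked the cells of each library, and the highest were removed as doublets, at 0.8% per 1000 deposited barcodes, or 20.0% of cells in acute and 15.1% in normal. Scrublet's own threshold marked 0 cells. Both libraries were clustered together without integration (2000 variable genes, 30 principal components, 15 neighbours, Leiden clustering with igraph 0.11.9 at resolution 1). Clusters were named from marker genes. The naming rule was revised after the leading genes and sizes of the clusters had been seen: immunoglobulin genes were left out of the leading genes, and markers of another class blocked a name only outside the same broad group, with 2 or more of them leading and more of them detected. Names are therefore rebuilt, not the authors'.

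For each class and library, raw UMIs were added up and scaled to the class total. CPM intervals are Poisson, share intervals Clopper-Pearson, and ratio intervals exact for a pair of counts, all at 95%. UMIs of 1 library do not measure the spread between animals. The ratio intervals, the 1.5-fold call and the share intervals were tested on simulated Poisson and binomial counts. That setting has no UMIs gathered in single cells. Filtering, doublet removal, clustering and naming were not simulated.

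The comparison, the gene lists and the rules were chosen with earlier results of these data known, and the lists printed were picked after their values had been seen. Genes were named from the highest and lowest ratios per class (at least 100 UMIs and 50 CPM in the higher library, a level at least 0.25 times that of the gene's highest class), up to 2 each way per list, and a set of always-named fibroblast genes. Ifit1 and Cd83 across classes, Il17a in gamma-delta T-like cells, and Cd74 as a marker of other cells, were named after their values were seen. Alternatives were no doublet removal, a stricter filter (1000 UMIs, 500 genes, 10% mitochondrial), resolution 0.5, each library clustered alone, no neutrophil-like cells in the denominator, median-ratio scaling, genes with 20 UMIs, 2-fold, thinning to 1000 UMIs, and single clusters.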

Additional observations from a re-analysis of the deposited data

Results flagged for a closer look

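Both libraries held antibody counts that no gene comparison used: 29480012 antibody UMIs over the cells of acute and 31805196 over those of normal. In acute the antibodies were mixed within cells, and the top antibody of a cell held a median of 44.0% of its antibody UMIs, against 81.2% in normal.

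The median log2 ratio of the immediate early list was 0.72 in gamma-delta T-like cells and -0.34 in keratinocyte-like cells. That of the resident macrophage list was 0.89 in neutrophil-like and 0.35 in fibroblast-like cells, and -0.52 in macrophage-like cells. These opposite directions came from 1 library a side, and the differences between classes were not tested.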

How the results depend on the processing

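With 1 library a side no library could be left out. No paired analysis was possible because each group is 1 library. Removal of doublets at the threshold that Scrublet sets itself was not run as an alternative, since that threshold marked 0 cells in both libraries. Alternatives that take 1 cluster alone were chosen after seeing the data. Among the shares under the alternatives, 29 values moved by less than their counting interval and 29 by more, and 3 whose interval left out 0 turned in direction. The keratinocyte and alpha-beta T differences, whose intervals held 0, also changed sign, the first without neutrophil-like cells and the second there and with the stricter cell filter. Differences in share, acute minus normal in percentage points, that moved were, with all doublet candidates kept, 12.5 (mononuclear phagocyte), 6.81 (macrophage), 3.52 (monocyte), 2.22 (MHC class II-high myeloid), 4.12 (T or NK), 3.42 (gamma-delta T). An unnamed cluster with leading markers of MHC class II-high myeloid and neutrophil cells held 1907 cells of acute there (7.90%) and 750 of normal (4.24%). Its part in these differences was not tested. With the stricter cell filter the differences that moved were -12.1 (neutrophil), 19.7 (mononuclear phagocyte), 10.3 (macrophage), 8.15 (monocyte), -6.13 (fibroblast), -2.44 (T or NK), 0.552 (keratinocyte), 0.885 (adipocyte), -1.26 (gamma-delta T), -1.18 (alpha-beta T). At resolution 0.5 they were 11.2 (macrophage), -3.36 (fibroblast), 3.15 (alpha-beta T). No gamma-delta T-like or MHC class II-high myeloid-like class was named at that resolution. The alpha-beta T-like cluster there (2422 cells in acute, 1414 in normal) had Trdc among its leading genes. The macrophage-like one (5364 and 2495) was led by H2-Aa, so both values describe wider classes. With each library clustered alone they were 14.8 (mononuclear phagocyte), 6.0 (macrophage), 7.76 (monocyte), 1.73 (alpha-beta T). Without neutrophil-like cells they were 12.8 (mononuclear phagocyte), 11 (macrophage), 4.05 (monocyte), -2.28 (MHC class II-high myeloid), -10.6 (fibroblast), 0.989 (T or NK), -2.1 (vascular endothelial), -0.417 (keratinocyte), -1.88 (alpha-beta T). With each library clustered alone, the classes of acute and normal were not alike. NK-like (192 cells) and mast-like (48) classes were named in normal only, and a migratory dendritic-like one (266) in acute only. In acute the alpha-beta T-like cluster had Gzma among its leading genes, and the macrophage-like one the mast cell markers Mcpt4, Cpa3, Cma1 and Tpsb2.

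Counts of genes higher and lower in acute followed the threshold, the filter and the depth. At 1.5-fold they were 433 and 412 of 5702 counted genes (neutrophil), 390 and 380 of 6414 (monocyte) and 261 and 278 of 5991 (macrophage). MHC class II-high myeloid-like cells had 275 and 174 of 6677, and fibroblast-like cells 474 and 374 of 9551. The T classes had 291 and 222 of 2864 (gamma-delta) and 260 and 212 of 4739 (alpha-beta). Counts were 258 and 131 of 4377 (vascular endothelial), 237 and 199 of 4430 (keratinocyte) and 121 and 55 of 1135 (erythroid). At 2-fold they were 130 and 95 (neutrophil), 91 and 90 (monocyte), 59 and 34 (macrophage), 61 and 27 (MHC class II-high myeloid), 150 and 68 (fibroblast), 64 and 39 (gamma-delta T), 65 and 56 (alpha-beta T), 64 and 20 (vascular endothelial), 50 and 49 (keratinocyte), 30 and 8 (erythroid). With genes of at least 20 UMIs they were 1226 and 1166 (neutrophil), 856 and 1115 (monocyte), 799 and 1075 (macrophage), 811 and 679 (MHC class II-high myeloid), 1011 and 1082 (fibroblast), 1056 and 1010 (gamma-delta T), 920 and 831 (alpha-beta T), 1010 and 861 (vascular endothelial), 841 and 1195 (keratinocyte), 734 and 411 (erythroid). That setting takes in more genes, all of low counts, so its counts cannot be set against the others directly. With cells thinned to 1000 UMIs those that moved by over 1.5 times were 265 and 262 (neutrophil), 227 lower (monocyte), 147 lower (macrophage), 179 and 109 (MHC class II-high myeloid), 247 and 130 (fibroblast), 76 and 53 (gamma-delta T), 162 higher (alpha-beta T), 72 and 28 (vascular endothelial), 50 and 23 (keratinocyte), 77 and 32 (erythroid). With all doublet candidates kept they were 393 lower (gamma-delta T), 409 higher (vascular endothelial). With the stricter filter they were 249 lower (neutrophil), 142 and 119 (gamma-delta T), 66 and 30 (erythroid). With median-ratio scaling, against 121 and 55, they were 75 and 86 (erythroid). Cells in which 1 antibody held at least 80% of antibody UMIs were 0.0829% in acute and 61.9% in normal.

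The list medians and gene ratios (log2) that turned in direction were as follows. In cluster 8 alone the value was -0.22 for Interferon-stimulated genes (neutrophil). In cluster 5 alone the values were 0.18 for Interferon-gamma inducible genes (neutrophil), 0.63 for Gbp2 (neutrophil), 0.53 for Irgm1 (neutrophil), -1.51 for Ltf (neutrophil). In cluster 3 alone the value was 0.19 for Hypoxia and glycolysis genes (monocyte). At resolution 0.5 the values were 0.21 for Resident macrophage genes (macrophage), 0.21 for Cd163 (macrophage). In cluster 6 alone the values were 0.0322 for Antioxidant and Nrf2 targets genes (neutrophil), -0.80 for Camp (neutrophil), -0.51 for Ltf (neutrophil). In cluster 19 alone the values were -0.17 for Contractile and TGF-beta response genes (fibroblast), -1.48 for Crabp1 (fibroblast), -0.68 for Acta2 (fibroblast), -0.0254 for Tfrc (fibroblast). With cells thinned to 1000 UMIs the value was 0.21 for Proliferation genes (gamma-delta T). In cluster 12 alone the value was -0.58 for Il17a (alpha-beta T). The causes of these changes were not tested. Depth limits gamma-delta T-like and neutrophil-like cells most, with medians of 787 and 870.0 UMIs a cell in acute.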

Other observations

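In acute, antibody 7 took 39.4% of antibody UMIs, antibody 8 41.2%, antibody 10 19.3% and antibody 9 0.00795%. In normal, antibody 7 took 77.6%, antibody 8 15.2%, antibody 9 6.98% and antibody 10 0.174%. Among cells of acute grouped by their top antibody, neutrophil-like cells made up 22.9% of the 6844 kept cells with antibody 7, 27.8% of the 12044 with antibody 8 and 6.88% of the 407 with antibody 10. Mononuclear phagocyte-like cells made up 56.3%, 37.6% and 72.7% of them. In normal, neutrophil-like cells made up 40.9% of the cells with antibody 7 and 8.33% of the 120 with antibody 8.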
